A study of Mus musculus with 17 samples.

Results

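The genes described are 36 enzymes and regulators of mitochondrial fuel use, taken by gene symbol from the 21798 genes listed for this series. They comprise 15 genes of the tricarboxylic acid (TCA) cycle, pyruvate carboxylase (Pcx) included, 18 of branched-chain amino acid (BCAA) breakdown and 3 of ketone body use. All 36 passed the filter on low values and were among the 16218 genes tested. Male C57Bl6/J mice aged 7 to 8 weeks underwent transverse aortic constriction (TAC), a ligature that makes the left ventricle pump against pressure, or Sham surgery. Starting 1 week after surgery, they received 6 oral gavages of saline vehicle (Veh) or of 50 μg/kg 29P, an oral prodrug of an RGD-mimetic directed at αvβ3-integrin. The apex of the left ventricle was taken 3 weeks after surgery, and bulk RNA-sequencing is held for 9 TAC libraries (6 of 29P and 3 of Veh mice) and 8 Sham libraries (3 of 29P and 5 of Veh mice). The labels name no transgene or deletion. The study had left out libraries of low depth and a TAC Veh library that clustered with Sham, so TAC Veh is the group left after that choice. The labels number the libraries without saying whether each came from its own mouse, so p-values measure the spread between these libraries, which may be technical.

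The TCA cycle oxidises acetyl-CoA from every fuel in the mitochondrial matrix and hands electrons to the respiratory chain, and the heart depends on it for nearly all of its ATP. Leucine, isoleucine and valine are first transaminated, then committed to oxidation by the branched-chain ketoacid dehydrogenase complex, which a kinase (Bckdk) switches off and a phosphatase (Ppm1k) switches on. Ketone bodies made by the liver are taken up by the heart and returned to acetyl-CoA by 3 enzymes in turn, Bdh1, Oxct1 and Acat1.

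The values are reads scaled to a common library total (CPM), and a difference is a log2 fold change from a single limma model of the 4 group means over all 16218 genes. Surgery comparisons were called at a Benjamini-Hochberg adjusted p of 0.05 or less, and members in 29P comparisons were counted at an unadjusted limma p of the same size, with the adjusted p beside it. Estimated depth was 14.2 to 23.8 M reads, and 7 of 7 cardiomyocyte markers reached 0.5 CPM in every library. Sham Veh libraries S19 and S20 and TAC 29P library S18 stood apart with atrial transcripts (summed level of 5 atrial markers 1723 to 2666 CPM, against 1.76 to 28.6 CPM in the other 14), so surgery counts are also given without them. On the deposited scale most genes were higher after TAC: the all-gene median of the log2 fold change was 0.35 in Veh mice and 0.37 in 29P mice. TMM factors, which centre libraries on their bulk of genes, moved it to 0.01 in both, so the main surgery results are given under both scalings.

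Across both treatments, Bdh1 was the 1 member of the 36 that rose after TAC, and 16 fell. The members that fell were in the succinyl-CoA, isocitrate and 2-oxoglutarate steps of the TCA cycle (5 genes), along the BCAA pathway (10 genes) and at the end of ketone use (Acat1). Among all genes tested, 49.4% were called higher and 3.08% lower in this comparison, which weights Veh and 29P mice equally. The median log2 fold change of the 36 genes was −0.16, against 0.36 for all genes, and 34 of the 36 lay below the median of all genes. With TMM factors 31 members fell and Bdh1 rose (13.5% of all genes lower, 13.4% higher), with a median of −0.51 against 0.01. The members not called lower with TMM factors were Ogdh, Pcx, Bcat1, Bckdk and Bdh1. Without the atrial libraries 16 members fell on the deposited scale (2.89% of all genes lower). Of the 16 calls, 14 held in each of the fits that left out 1 library, and Ivd and Hibadh were lost in some.

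**Figure D1:**
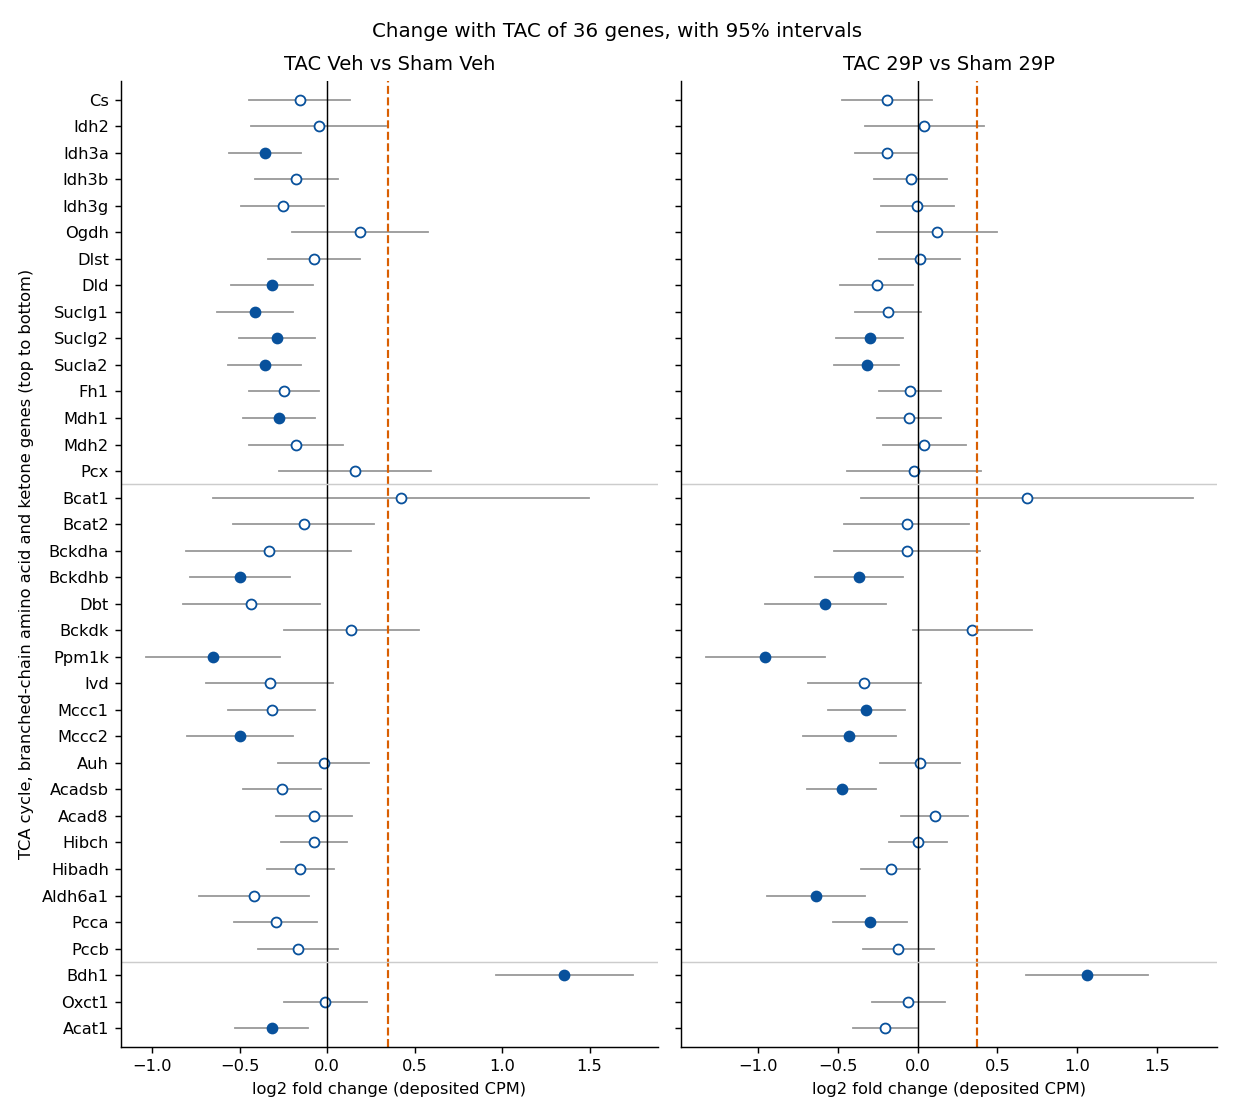
Log2 fold change with TAC in Veh mice (left) and in 29P mice (right) for the 36 genes in 3 blocks (TCA cycle, BCAA breakdown, ketone use), with 95% intervals from the limma model; filled points have an adjusted p of 0.05 or less, the black line marks 0 and the dashed line the median of all genes tested (0.35 and 0.37). Bdh1 is at 1.36 and 1.06, and 34 of the 36 points lie left of the dashed line in each panel.

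In Veh mice 1 member rose and 10 fell after TAC, and in 29P mice 1 rose and 10 fell as well. The shares of all genes called were 22.5% higher and 1.91% lower in Veh mice, and 31.4% higher and 1.12% lower in 29P mice. With TMM factors 26 members fell in Veh mice and 25 in 29P mice, and Bdh1 rose in both (5.51% and 5.23% of all genes lower, 4.03% and 5.64% higher). At an unadjusted limma p of 0.05 or less 1 rose and 17 fell in Veh mice (37.4% and 3.48% of all genes). None of the 10 lower calls in Veh mice held in every fit that left out 1 library, and in 29P mice those of Ppm1k and Acadsb did. Without the atrial libraries 5 fell in Veh mice and 7 in 29P mice (0.937% and 1.33% of all genes lower). The count of members that fell in Veh mice was 0 without TAC Veh library S2, where 0.284% of all genes were called lower, and 1 without TAC Veh library S16 (0.950% of all genes). In 29P mice it was 2 without Sham 29P library S14 (0.228% of all genes), 4 without TAC 29P library S3 (0.493%), 5 without TAC 29P library S9 (0.672%) and 6 without Sham 29P library S15 (0.647%). The labels also give each library a number before its S number, and these label numbers fall into 4 runs that each hold both surgeries. With the run as a covariate 6 members fell in Veh mice (1.28% of all genes) and 1, Ppm1k, in 29P mice (0.166% of all genes), while Bdh1 rose in both. Of these runs only A held both 29P groups (1 Sham and 5 TAC libraries), and only A and B held both Veh groups. That fit therefore separates run from group only in part. Without the covariate, the 5 members called lower in both treatments were Suclg2, Sucla2, Bckdhb, Ppm1k and Mccc2. The difference between the 2 surgery effects was tested as an interaction, and no member passed at an unadjusted limma p of 0.05 or less (1.98% of all genes did with a positive and 0.863% with a negative interaction, and 0.00617% and 0.0% after adjustment). The smallest limma interaction p among the members was 0.121, for Mdh1 (adjusted p = 0.998).

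Cell type marker levels moved with surgery too on the deposited scale. The summed level of 6 fibroblast markers was 756 to 1371 CPM in Sham and 1318 to 2982 CPM in TAC libraries, that of 5 macrophage markers 157 to 315 against 348 to 566 CPM, and that of 4 endothelial markers 377 to 806 against 680 to 1031 CPM. The fibroblast and endothelial ranges overlapped. With TMM factors the median log2 fold changes in Veh and 29P mice were 1.01 and 1.10 (fibroblast), 0.62 and 0.72 (macrophage) and 0.23 and 0.40 (endothelial). Markers then called higher were 3 of 6, 1 of 5 and 0 of 4 in Veh mice (4.03% of all genes). In 29P mice they were 4, 5 and 0 (5.64% of all genes). Cardiomyocyte markers (7 genes) summed to 36298 to 50235 CPM in Sham and 33098 to 43582 CPM in TAC libraries. The median log2 fold change of these 7 genes was −0.29 in Veh and −0.12 in 29P mice (TMM −0.62 and −0.48). That of the 36 members was close to it, at −0.25 and −0.09 (TMM −0.58 and −0.46). Mitochondrially encoded transcripts took 29.1 to 40.0% of the reads in Sham and 23.6 to 29.4% in TAC libraries. Their part in the members' changes was not tested, and in bulk tissue fewer cells of a type and less RNA per cell cannot be told apart. Summed smooth muscle (3 markers, 93.6 to 349 against 129 to 353 CPM) levels overlapped, and adipocyte (3 markers listed) and lymphocyte (3 markers) levels stayed at or under 7.09 CPM. The summed level of 5 erythroid markers was 1018 to 2463 CPM in Sham Veh and 3082 to 4992 CPM in TAC Veh libraries, without overlap, and all 5 were called higher there (median log2 fold change 1.29, and 0.96 with TMM factors, where none passed adjustment). In 29P mice that level was 562 to 1680 CPM in Sham and 1036 to 4151 CPM in TAC libraries, and within TAC the median erythroid difference of 29P from Veh was −1.11, with none called.

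On the deposited scale ketone use held the largest change of the 36 genes, that of Bdh1, while with TMM factors Ppm1k changed more than Bdh1 in 29P mice (−1.32 against 0.70) and averaged over treatments (−1.15 against 0.86). Bdh1 encodes the mitochondrial dehydrogenase that turns β-hydroxybutyrate into acetoacetate, and it lies on chromosome 16 of mm10 from 31422280 to 31458901 on the plus strand, where the annotation also places the antisense gene Gm15743. Ppm1k, the phosphatase described further on, lies on chromosome 6 from 57506502 to 57535468 on the minus strand and overlaps Gm45193 on the other strand. Whether reads were counted by strand is not given in the sources used here, so reads of such partners cannot be told apart. The bases before the first annotated exon are shown for these 2 genes because they are the member that rose most and the member that fell most. They come from the RefSeq promoter table (GRCm38.p6), Bdh1 from chr16:31422047-31422279 on the plus strand and Ppm1k from chr6:57535488-57535737 on the minus strand, and capitals mark matches to the GC box CCGCCC on either strand:
Bdh1: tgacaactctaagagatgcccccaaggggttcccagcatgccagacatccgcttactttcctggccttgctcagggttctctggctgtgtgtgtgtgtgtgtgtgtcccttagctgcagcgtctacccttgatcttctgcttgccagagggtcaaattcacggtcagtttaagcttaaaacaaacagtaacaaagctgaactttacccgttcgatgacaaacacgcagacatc
Ppm1k: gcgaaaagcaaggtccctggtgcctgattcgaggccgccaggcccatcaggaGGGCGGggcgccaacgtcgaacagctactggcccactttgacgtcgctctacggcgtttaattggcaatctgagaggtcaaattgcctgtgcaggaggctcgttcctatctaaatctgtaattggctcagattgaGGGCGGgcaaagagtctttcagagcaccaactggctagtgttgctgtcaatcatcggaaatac
The GC box was found in the 250 bases before the start of 19 of the 33 members with a promoter in that table (57.6%), and in 35.4% of 27025 genes. The other letters searched on both strands were TNAAGGTCA, the estrogen-related receptor site (0 of 33 members and 1.3% of genes), the NRF1 site (3 members, 9.09%, and 4.23% of genes), and CCGGAAG, the ETS site (2 members, 6.06%, and 7.83% of genes). These are matches of letters only. Idh3a, Acat1 and Dbt had no entry.

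Bdh1 was at 74.7, 51.9, 59.8, 39.1 and 61.6 CPM in the 5 Sham Veh libraries and at 57.0, 47.1 and 60.7 CPM in the 3 Sham 29P libraries. It was at 151, 164 and 120 CPM in the 3 TAC Veh libraries, and between 97.6 and 149 CPM (median 107) in the 6 TAC 29P libraries. All 9 TAC libraries lay above all 8 Sham libraries. Among all genes tested, 9.52% were separated in that direction. Bdh1 rose 2.56-fold in Veh mice (log2 fold change 1.36, standard error 0.19, limma adjusted p = 0.000672) and 2.09-fold in 29P mice (1.06, standard error 0.18, limma adjusted p = 0.00205). With TMM factors the log2 fold changes were 1.02 and 0.70 (limma adjusted p = 0.00109 and 0.0109), and without the atrial libraries 1.23 and 1.11. Within the 4 runs of label numbers, with treatments pooled, the log2 difference of TAC from Sham was 0.98 to 1.63. Run C compares TAC Veh with Sham 29P and run D compares TAC 29P with Sham Veh, each with 1 TAC library. Surgery and 29P cannot be told apart in those runs. Within TAC, the log2 difference of 29P from Veh was −0.33 for Bdh1 (95% interval −0.71 to 0.05, limma adjusted p = 1.0, exact permutation p = 0.119, TMM −0.31), and 4 of the 6 TAC 29P libraries lay below every TAC Veh library.

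Oxct1, the transferase that activates acetoacetate and the step that commits ketones to oxidation, was not called on the deposited scale. Its values were 1219, 906, 989, 874 and 1008 CPM in Sham Veh, 1043, 1161 and 958 CPM in Sham 29P, 928, 1091 and 944 CPM in TAC Veh and 900 to 1137 CPM (median 1009) in TAC 29P libraries. The groups overlapped in every comparison. The log2 fold change after TAC was −0.01 in Veh mice (95% interval −0.25 to 0.23) and −0.06 in 29P mice (−0.29 to 0.17). With TMM factors it was −0.34 (limma adjusted p = 0.113) and −0.42 (limma adjusted p = 0.0442).

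Acat1, the thiolase that splits acetoacetyl-CoA and also ends isoleucine breakdown, fell after TAC. It was at 498, 424, 458, 418 and 461 CPM in Sham Veh and at 348, 406 and 335 CPM in TAC Veh libraries, with no overlap. Sham 29P libraries held 479, 459 and 483 CPM and TAC 29P libraries 373 to 471 CPM (median 398). The log2 fold change was −0.32 in Veh mice (standard error 0.10, limma adjusted p = 0.0287) and −0.20 in 29P mice (limma adjusted p = 0.108), and −0.65 and −0.57 with TMM factors (limma adjusted p = 0.00262 and 0.00693). Without the atrial libraries the adjusted p in Veh mice was 0.0578.

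The ratio of Oxct1 to Bdh1 within a library does not depend on how libraries are scaled. It was 15.8 to 24.6 in the 8 Sham libraries and 6.16 to 10.96 in the 9 TAC libraries, again with no overlap. The ratio fell by 1.17 on the log2 scale over all TAC against all Sham libraries (exact permutation p = 4.11e-05, the smallest that 24310 splits allow, adjusted p = 0.00103 over 25 ratio tests). Per length of annotated exon, Sham Veh libraries held 270 ± 36.4 CPM per kb of Oxct1, 120 ± 8.54 of Acat1 and 14.8 ± 3.37 of Bdh1 (SD, n = 5), so Bdh1 was the least abundant of the 3 by this measure.

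**Figure D2:**
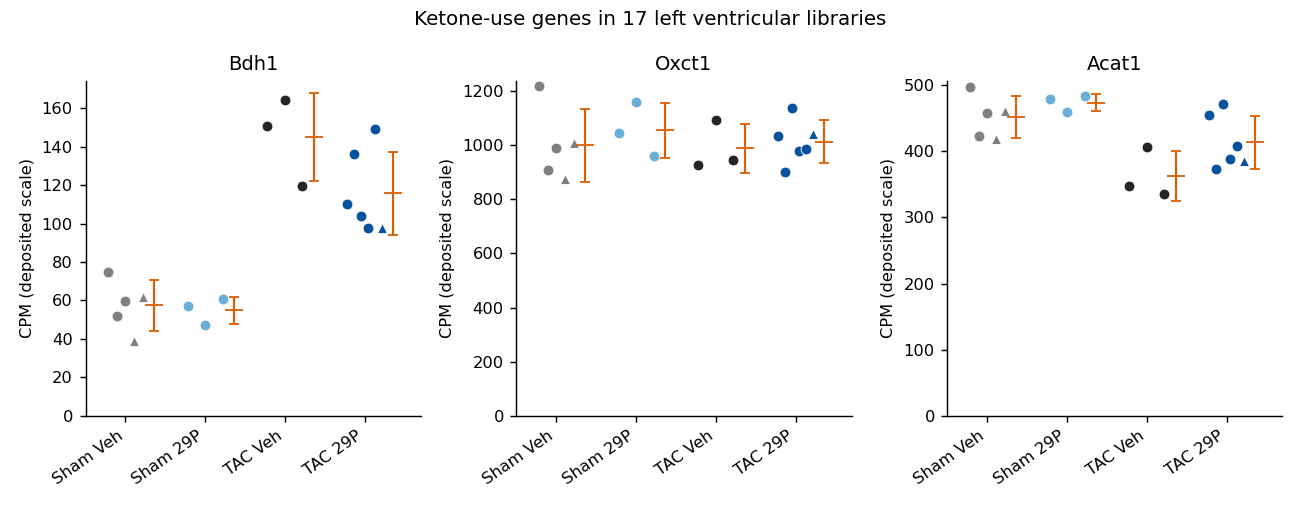
CPM of Bdh1, Oxct1 and Acat1 in each of the 17 libraries by group; triangles are the 3 libraries with atrial transcripts, and the orange mark is the mean with SD. The 9 TAC points of Bdh1, from 97.6 CPM upward, all lie above the Sham points, which end at 74.7 CPM, while those of Oxct1 overlap.

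Of the other genes of ketone handling fixed as a list (6 genes), 1 rose and 0 fell in Veh mice, and 2 rose and 0 fell in 29P mice on the deposited scale, and with TMM factors none passed in either (unadjusted limma p, 1 higher and 1 lower in Veh mice and 2 higher and 1 lower in 29P mice). On the deposited scale 22.5% of all genes were called higher in Veh mice and 31.4% in 29P mice, so these counts are near the share of all genes. Aacs, which activates acetoacetate in the cytosol, had a log2 fold change of 0.93 (limma adjusted p = 0.0237) in Veh mice and 0.60 with TMM factors (adjusted p = 0.107).

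In the TCA cycle no gene rose after TAC and 6 of 15 fell in Veh mice: Idh3a, Dld, Suclg1, Suclg2, Sucla2 and Mdh1. In 29P mice Suclg2 and Sucla2 fell. Of all genes 1.91% were called lower in Veh and 1.12% in 29P mice. The median log2 fold change of the 15 genes was −0.25 in Veh mice and −0.05 in 29P mice on the deposited scale, and −0.58 and −0.41 with TMM factors, with 12 and 11 members called lower (5.51% and 5.23% of all genes). All 15 lay below the median of all genes in both. The 15 log2 fold changes in 29P mice ran from −0.32 to 0.12 on the deposited scale. Without Sham 29P library S14 they ran from −0.30 (Suclg1) to −0.04 (Ogdh). In that fit 8 TCA genes were called lower in Veh mice and 0 in 29P mice (2.42% and 0.228% of all genes). Averaged over treatments 5 fell (TMM 13), namely Idh3a, Dld, Suclg1, Suclg2 and Sucla2. Of all genes 3.08% were called lower there (TMM 13.5%).

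Succinyl-CoA synthetase, which makes ATP or GTP directly in the cycle, is built from the shared subunit Suclg1 and either Sucla2 (ATP-forming) or Suclg2 (GTP-forming). Suclg1 was at 247, 248, 256, 225 and 287 CPM in Sham Veh and at 174, 209 and 185 CPM in TAC Veh libraries, without overlap. Sham 29P libraries held 253, 203 and 261 CPM and TAC 29P libraries 194 to 224 CPM (median 210), where S14 was the low Sham library. The log2 fold change was −0.41 in Veh mice (standard error 0.10, limma adjusted p = 0.0116, TMM −0.75) and −0.19 in 29P mice (limma adjusted p = 0.152, TMM −0.55, adjusted p = 0.00528).

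Sucla2 fell in both treatments. It was at 657, 681, 607, 593 and 616 CPM in Sham Veh, 645, 781 and 624 CPM in Sham 29P, 451, 538 and 491 CPM in TAC Veh and 487 to 608 CPM (median 540) in TAC 29P libraries. TAC libraries lay below those of their own Sham group in both treatments, a separation found for 2.23% of all genes in Veh and 1.08% in 29P mice. The log2 fold changes were −0.36 in Veh mice (limma adjusted p = 0.0190) and −0.32 in 29P mice (limma adjusted p = 0.0217), and −0.69 in both with TMM factors. The calls in 29P mice turned on Sham 29P library S14, the highest for Sucla2 at 781 CPM. Without it the log2 fold change there was −0.22 for Sucla2 (limma adjusted p = 0.162) and −0.22 for Suclg2 (limma adjusted p = 0.194). Suclg2, measured at a log2 fold change of −0.29 and −0.30 (limma adjusted p = 0.0486 and 0.0311), kept its ratio to Sucla2 within 0.165 to 0.199 in all 17 libraries. That ratio differed by 0.04 on the log2 scale over all TAC against all Sham libraries (exact permutation p = 0.241, adjusted p = 0.402).

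Idh3a, the catalytic subunit of NAD-dependent isocitrate dehydrogenase, was at 491, 412, 444, 454 and 513 CPM in Sham Veh and 334, 390 and 361 CPM in TAC Veh libraries, which do not overlap. The log2 fold change was −0.35 in Veh mice (standard error 0.10, limma adjusted p = 0.0188, TMM −0.69, and adjusted p = 0.0540 without the atrial libraries). Its partners Idh3b and Idh3g, the regulatory subunits, were at −0.18 and −0.25 and did not pass on the deposited scale (limma adjusted p = 0.241 and 0.0975) but did with TMM factors (−0.51 and −0.59, adjusted p = 0.00719 and 0.00175). In 29P mice Idh3a libraries overlapped, at 484, 479 and 470 CPM in Sham 29P against 366 to 485 CPM (median 417) in TAC 29P, with a log2 fold change of −0.19 (limma adjusted p = 0.119, TMM −0.56).

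Dld, the dihydrolipoamide dehydrogenase shared by the pyruvate, 2-oxoglutarate and branched-chain complexes, was at 512, 486, 445, 486 and 473 CPM in Sham Veh and 354, 428 and 376 CPM in TAC Veh libraries. Its log2 fold change was −0.32 (limma adjusted p = 0.0465, TMM −0.65), and the groups did not overlap. Ogdh, the first subunit of the 2-oxoglutarate complex, had the highest log2 fold change of the cycle, 0.19 in Veh mice (95% interval −0.20 to 0.58), and this turned to −0.14 with TMM factors. Ogdh was at 1233, 614, 1085, 804 and 1111 CPM in Sham Veh and 1021, 1210 and 994 CPM in TAC Veh libraries, inside the Sham range. Dlst, the second subunit, was at −0.08 (TMM −0.41, limma adjusted p = 0.0266).

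Citrate synthase (Cs), which opens the cycle, was at −0.16 in Veh and −0.19 in 29P mice and passed with TMM factors alone (−0.49 and −0.56, limma adjusted p = 0.0192 and 0.00976). The NADP-dependent Idh2 was at −0.05 and 0.04 (TMM −0.38 and −0.32). Fh1 (fumarase) was at −0.25 and −0.05, with no overlap in Veh mice, and at −0.58 and −0.41 with TMM factors (limma adjusted p = 0.00242 and 0.0161). Mdh1 (cytosolic malate dehydrogenase) was at −0.28 (limma adjusted p = 0.0485) and −0.05, and at −0.61 and −0.42 with TMM factors (limma adjusted p = 0.00240 and 0.0177). Mdh2, the mitochondrial form, was at −0.18 and 0.04, the latter turning to −0.32 with TMM factors. The ratio of Mdh1 to Mdh2 was 2.05 to 2.92 over the 17 libraries and fell by 0.08 on the log2 scale with TAC (exact permutation p = 0.190, adjusted p = 0.402). Pcx, which refills the cycle with oxaloacetate, was at 8.86 to 16.9 CPM in Sham Veh and 12.8 to 15.9 CPM in TAC Veh libraries (log2 fold change 0.16, 95% interval −0.28 to 0.59, TMM −0.17). Per exon length in Sham Veh libraries, Mdh1 was the most abundant of the 36 genes (644 ± 45.2 CPM per kb), followed by Idh2 (351 ± 60.6), and Pcx stood at 2.69 ± 0.79 (SD, n = 5).

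**Figure D3:**
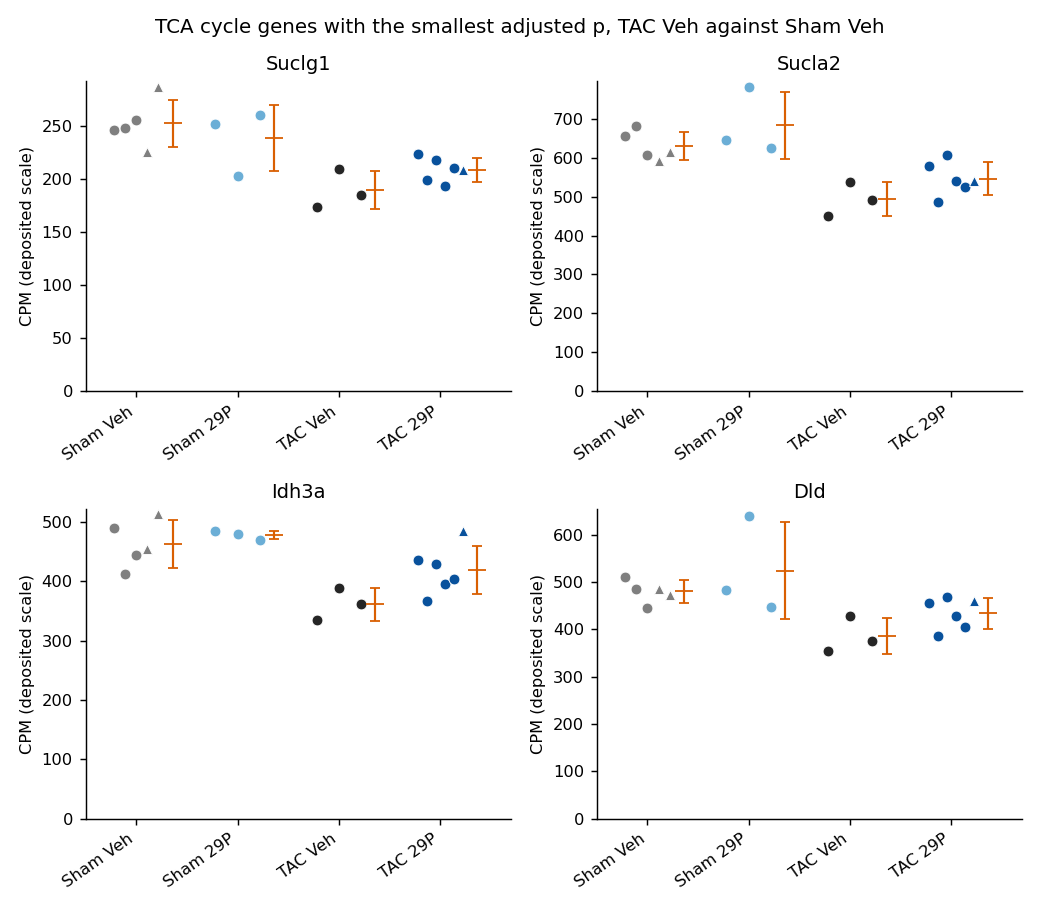
CPM of Suclg1, Sucla2, Idh3a and Dld in each library by group (triangles, libraries with atrial transcripts; orange, mean with SD). In all 4 panels the 3 TAC Veh points lie below the 5 Sham Veh points, and for Sucla2 the 6 TAC 29P points, up to 608 CPM, also lie below the 3 Sham 29P points.

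Of the other TCA cycle genes fixed as a list (6 genes), 1 fell in each surgery comparison on the deposited scale and 5 in Veh and 4 in 29P mice with TMM factors, with 0 higher. Sdha, the catalytic subunit of succinate dehydrogenase, had log2 fold changes of −0.37 and −0.31 (limma adjusted p = 0.0271 and 0.0373, TMM −0.70 and −0.68), and Sdhc −0.29 and −0.12 (TMM −0.62 and −0.48). Of 10 genes of the malate-aspartate shuttle and anaplerosis, 2 rose and 0 fell in each (TMM 1 higher, with 4 lower in Veh and 6 lower in 29P mice). Of all genes, 22.5% were called higher in Veh and 31.4% in 29P mice (TMM 4.03% and 5.64%). Called lower were 1.91% and 1.12% (TMM 5.51% and 5.23%). The mitochondrial citrate carrier Slc25a1 rose from 2.19 to 4.80 CPM in Sham Veh to 6.13 to 7.87 CPM in TAC Veh libraries, with log2 fold changes of 1.02 and 1.30 (limma adjusted p = 0.0124 and 0.00326, TMM 0.69 and 0.93). The malic enzyme Me2 rose by 0.48 and 0.52 on the deposited scale (limma adjusted p = 0.0422 and 0.0225), and with TMM factors was at 0.15 and 0.16.

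In BCAA breakdown no gene rose and 3 of 18 fell in Veh mice (Bckdhb, Ppm1k and Mccc2), while 8 fell in 29P mice (those 3 with Dbt, Mccc1, Acadsb, Aldh6a1 and Pcca). Of all genes 1.91% were called lower in Veh and 1.12% in 29P mice. These counts turned on single libraries: without Sham 29P library S14, 6 fell in Veh mice (Bckdhb, Dbt, Ppm1k, Mccc2, Acadsb and Aldh6a1) and 2 in 29P mice (Ppm1k and Acadsb). Without TAC Veh library S2 or S16 none fell in Veh mice, without S12 6 did, without TAC 29P library S3 5 did, and in 29P mice the count was 3 without S3, 4 without S9 or S15, and 5 without S11 or Sham 29P library S4. The share of all genes called lower moved as well. In Veh mice it was 2.42% without S14, 0.284% without S2, 0.950% without S16 and 1.83% without S12 or S3. In 29P mice it was 0.228% without S14, 0.493% without S3, 0.672% without S9 and 0.647% without S15. It was 0.765% there without S11 and 1.49% without S4. With the run of label numbers as a covariate 3 fell in Veh mice and 1 in 29P mice (1.28% and 0.166% of all genes). A difference between the surgery effects was not called for any of the 18 genes by the limma interaction. Averaged over treatments 10 fell, the same 8 with Ivd and Hibadh (3.08% of all genes lower). The median log2 fold change of the 18 genes was −0.28 in Veh and −0.23 in 29P mice, and −0.61 and −0.60 with TMM factors, where 13 and 12 members fell (5.51% and 5.23% of all genes). In both comparisons 17 of 18 lay below the median of all genes, the exception being Bcat1.

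Ppm1k, the phosphatase that activates the branched-chain complex, fell most. It was at 67.3, 58.1, 67.4, 49.7 and 58.7 CPM in Sham Veh, 78.4, 123 and 83.9 CPM in Sham 29P, 34.0, 52.6 and 30.9 CPM in TAC Veh and 38.5 to 56.6 CPM (median 48.7) in TAC 29P libraries. In 29P mice the groups did not overlap, and in Veh mice TAC library S12 lay above Sham library S19. Ppm1k fell to 0.636 of the Sham level in Veh mice (log2 fold change −0.65, standard error 0.18, limma adjusted p = 0.0196, TMM −0.98) and to 0.516 in 29P mice (−0.96, standard error 0.18, limma adjusted p = 0.00286, TMM −1.32). Within the runs of label numbers, with treatments pooled, the log2 difference of TAC from Sham was −0.61 in run A and −0.79 in run B. In run C it was −1.44 (TAC Veh against Sham 29P). In run D, that of the atrial libraries, it was 0.07 (TAC 29P against Sham Veh). Surgery and 29P cannot be told apart in runs C and D. Sham 29P library S14, the highest at 123 CPM, was the shallowest with the highest mitochondrial share (14.2 M reads and 40.0%), and without it the log2 fold change in 29P mice was −0.76 (limma adjusted p = 0.0285).

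Bckdk, the kinase that inactivates the complex, was not called in either direction. It was at 63.2, 44.6, 58.1, 45.5 and 61.3 CPM in Sham Veh and 65.0, 66.7 and 48.4 CPM in TAC Veh libraries, and at 62.3, 32.5 and 49.3 CPM in Sham 29P and 47.4 to 65.3 CPM (median 61.1) in TAC 29P libraries. These groups overlap. The log2 fold change was 0.14 in Veh mice (95% interval −0.25 to 0.53) and 0.34 in 29P mice (−0.03 to 0.72), and −0.19 and −0.02 with TMM factors.

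The ratio of Bckdk to Ppm1k within a library was 0.77 to 1.05 in Sham Veh, 0.264 to 0.794 in Sham 29P, 1.27 to 1.91 in TAC Veh and 0.838 to 1.62 in TAC 29P libraries. Within each treatment TAC libraries lay above Sham libraries. The ratio rose by 0.88 on the log2 scale over all TAC against all Sham libraries (exact permutation p = 0.000452, adjusted p = 0.00566 over 25 ratio tests), and by 1.11 without the atrial libraries. Within Veh mice the difference was 0.79 (exact permutation p = 0.0179, adjusted p = 0.0744) and within 29P mice 1.30 (exact permutation p = 0.0119, adjusted p = 0.0744), each the smallest p that the splits allow. With 1 library left out it ranged from 0.65 to 0.94 in Veh mice and from 0.84 to 1.64 in 29P mice.

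**Figure D4:**
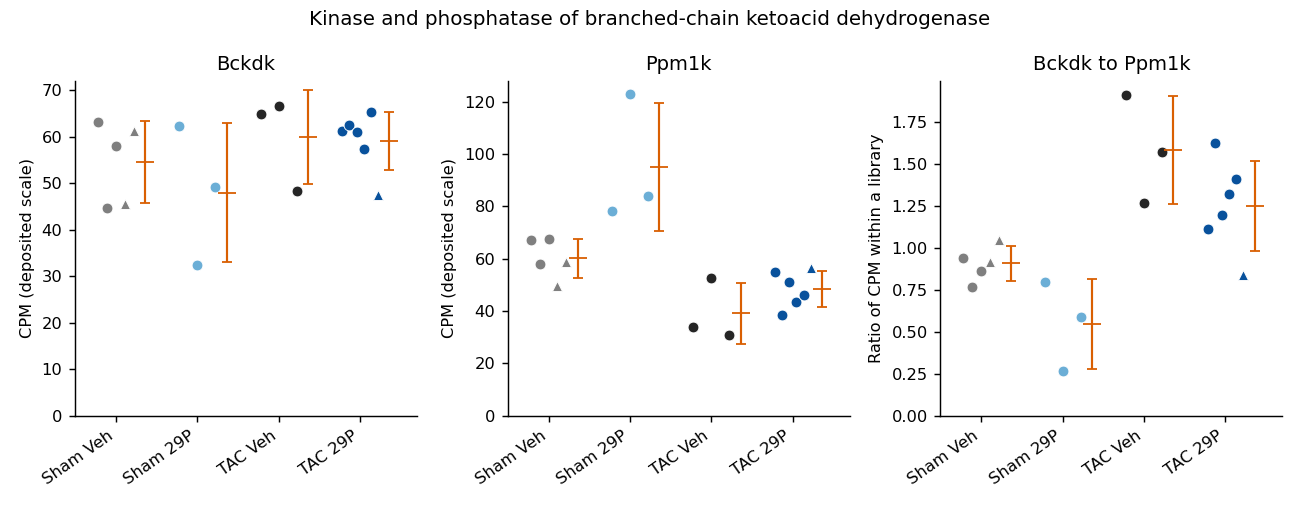
CPM of Bckdk and Ppm1k and their ratio within each of the 17 libraries by group (triangles, libraries with atrial transcripts; orange, mean with SD). The ratio is at or under 1.05 in all 8 Sham libraries and above it in 8 of the 9 TAC libraries, the exception being the TAC 29P library with atrial transcripts at 0.838.

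The complex itself fell in part. Bckdhb, the β subunit of its decarboxylase, was at 29.1, 29.1, 35.4, 26.5 and 31.8 CPM in Sham Veh and 18.7, 26.1 and 20.1 CPM in TAC Veh libraries, with no overlap. The log2 fold changes were −0.50 in Veh mice (limma adjusted p = 0.0176, TMM −0.83) and −0.37 in 29P mice (limma adjusted p = 0.0425, TMM −0.73), where the adjusted p was 0.0690 without the atrial libraries. Dbt, the acyltransferase core, was at 62.8, 103 and 61.9 CPM in Sham 29P and 36.3 to 56.1 CPM (median 52.0) in TAC 29P libraries, with a log2 fold change of −0.58 (limma adjusted p = 0.0248, TMM −0.95). Without Sham 29P library S14 it was −0.34 (limma adjusted p = 0.214). In Veh mice Dbt was at −0.43 (limma adjusted p = 0.0900, TMM −0.77, adjusted p = 0.0355), and Bckdha, the α subunit, at −0.34 and −0.06 (TMM −0.67 and −0.43).

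Upstream, transamination is catalysed by the cytosolic Bcat1 and the mitochondrial Bcat2. Bcat1 was scarce, at 1.09, 0.985, 0.808, 1.97 and 2.55 CPM in Sham Veh, 0.600, 0.423 and 1.41 CPM in Sham 29P, 1.70, 1.13 and 3.04 CPM in TAC Veh and 0.533 to 2.20 CPM in TAC 29P libraries. The highest Sham Veh and TAC 29P values were those of the atrial libraries. Its log2 fold change of 0.42 in Veh mice had a 95% interval of −0.65 to 1.496, and that of 0.69 in 29P mice one of −0.35 to 1.73 (TMM 0.09 and 0.32). Bcat2 was at 71.7, 43.8, 64.5, 43.5 and 68.5 CPM in Sham Veh and 52.4, 61.1 and 44.0 CPM in TAC Veh libraries, inside the Sham range (log2 fold change −0.13, TMM −0.47, limma adjusted p = 0.0593 with TMM).

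In the leucine branch, Mccc2, the β subunit of methylcrotonyl-CoA carboxylase, was at 43.0, 33.1, 38.5, 29.0 and 39.3 CPM in Sham Veh and 26.8, 29.0 and 21.7 CPM in TAC Veh libraries, with TAC Veh S12 (28.95 CPM) just under Sham Veh S19 (29.00 CPM). Sham 29P libraries held 41.6, 38.1 and 39.4 CPM and TAC 29P libraries 24.7 to 34.3 CPM (median 29.4), without overlap. The log2 fold changes were −0.50 and −0.43 (limma adjusted p = 0.0213 and 0.0290, TMM −0.83 and −0.80). Its partner Mccc1 was at −0.32 in both (limma adjusted p = 0.0582 and 0.0411, TMM −0.65 and −0.69), and Ivd, isovaleryl-CoA dehydrogenase, at −0.33 in both (limma adjusted p = 0.159 and 0.129, TMM −0.66 and −0.70). Auh, the hydratase of this branch, was at −0.02 in Veh and 0.02 in 29P mice, and at −0.35 in both with TMM factors (limma adjusted p = 0.0559 and 0.0460).

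In the isoleucine and valine branches, Acadsb, the short branched-chain acyl-CoA dehydrogenase, was at 151, 121, 133, 133 and 141 CPM in Sham Veh, 147, 195 and 153 CPM in Sham 29P, 108, 122 and 110 CPM in TAC Veh and 102 to 129 CPM (median 119) in TAC 29P libraries. It fell in 29P mice (log2 fold change −0.48, limma adjusted p = 0.00544, TMM −0.84), and was at −0.26 in Veh mice (limma adjusted p = 0.0813, TMM −0.59, adjusted p = 0.0128). Aldh6a1, the methylmalonate semialdehyde dehydrogenase of valine, was at 204, 175, 185, 162 and 179 CPM in Sham Veh, 197, 280 and 211 CPM in Sham 29P, 124, 168 and 118 CPM in TAC Veh and 112 to 168 CPM (median 153) in TAC 29P libraries. Aldh6a1 libraries of 29P mice did not overlap, those of Veh mice did by 1 TAC library. The log2 fold changes were −0.42 (limma adjusted p = 0.0501, TMM −0.75) and −0.64 (limma adjusted p = 0.00703, TMM −1.003), and without Sham 29P library S14 the latter was −0.48 (adjusted p = 0.0632). The valine enzymes Acad8, Hibch and Hibadh were at −0.08, −0.08 and −0.15 in Veh mice and 0.11, 0.00 and −0.17 in 29P mice, and at −0.41 to −0.53 with TMM factors apart from Acad8 and Hibch in 29P mice (−0.26 and −0.37). Propionyl-CoA carboxylase, where the branches meet, was at −0.29 for Pcca and −0.17 for Pccb in Veh mice, and at −0.30 (limma adjusted p = 0.0463) and −0.12 in 29P mice, with −0.49 to −0.67 for both subunits with TMM factors.

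**Figure D5:**
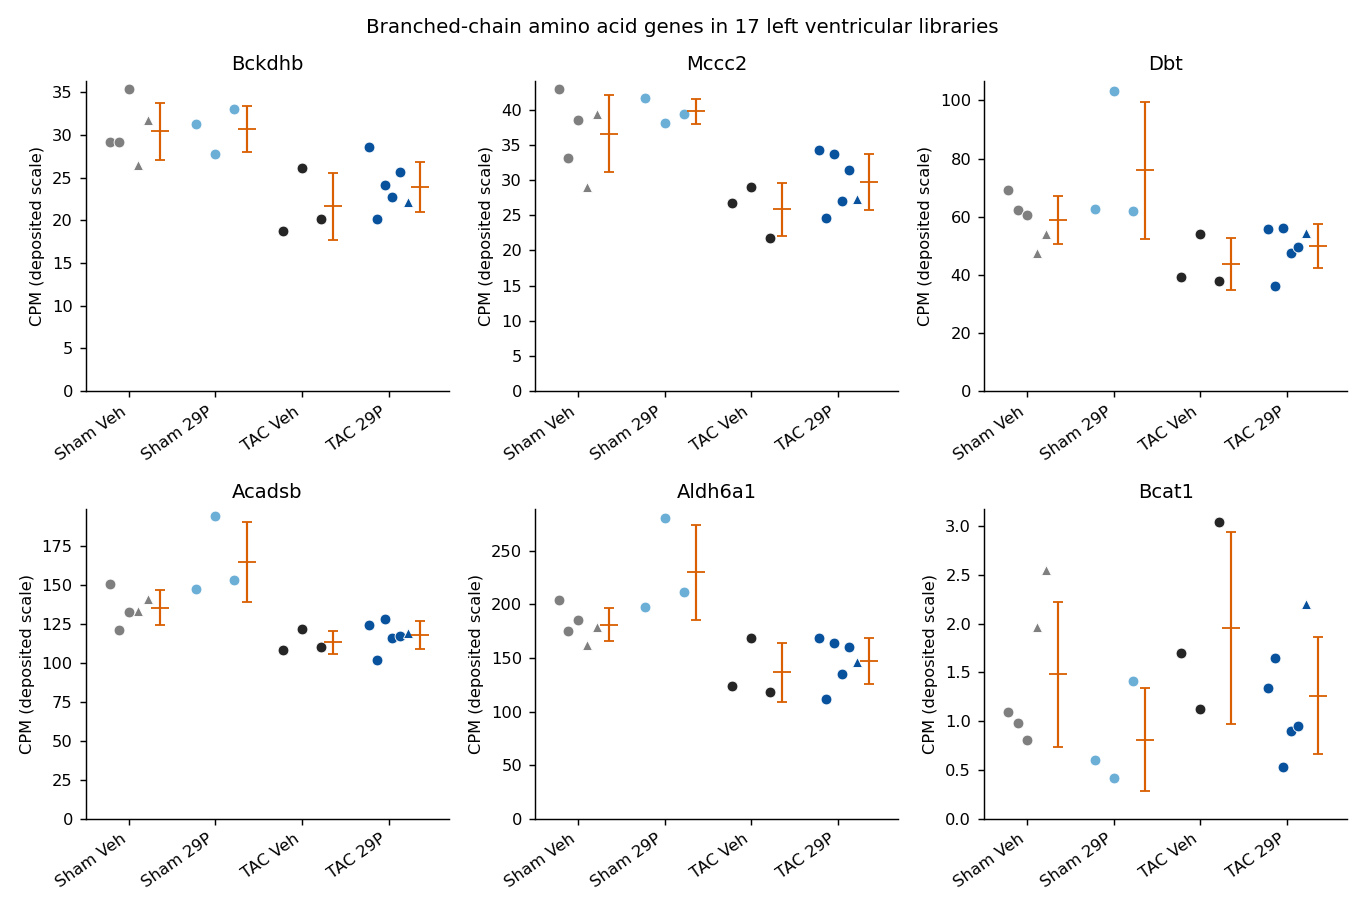
CPM of 6 BCAA genes in each of the 17 libraries by group (triangles, libraries with atrial transcripts; orange, mean with SD). Dbt, Acadsb and Aldh6a1 share the same high Sham 29P library (S14, at 103, 195 and 280 CPM), and the highest Bcat1 values of Sham Veh and TAC 29P are triangles.

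Of 11 other BCAA genes fixed as a list, 2 rose and 1 fell in Veh mice and 1 rose and 0 fell in 29P mice (TMM 1 higher with 5 lower, and 1 higher with 6 lower). The shares of all genes called higher were 22.5% in Veh and 31.4% in 29P mice (TMM 4.03% and 5.64%). Those called lower were 1.91% and 1.12% (TMM 5.51% and 5.23%). Slc7a5, the light chain of a transporter that carries BCAA across the cell membrane, was at 3.13 to 4.50 CPM in Sham Veh, 2.11 to 4.61 CPM in Sham 29P, 5.97 to 9.49 CPM in TAC Veh and 5.35 to 8.89 CPM in TAC 29P libraries, so that all TAC libraries lay above all Sham libraries. It rose by a log2 of 1.10 and 1.33 (limma adjusted p = 0.00928 and 0.00306, TMM 0.77 and 0.96). Mcee, the methylmalonyl-CoA epimerase, fell in Veh mice by 0.56 on the log2 scale (limma adjusted p = 0.00181, TMM −0.89), and was at −0.14 in 29P mice (limma adjusted p = 0.23, TMM −0.51).

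Within TAC, no member passed adjustment for a difference between 29P and Veh. By the unadjusted limma p 1 member was higher and 0 were lower, against 1.05% and 0.931% of all genes, and 0.0% of all genes passed adjustment. The median log2 fold change of the members was 0.12 (all genes −0.02), and 31 of 36 were positive. With TMM factors the median was 0.14 and no member was counted. The 1 member was Idh3a, with a log2 fold change of 0.21 (95% interval 0.01 to 0.41, limma p = 0.0408, adjusted p = 1.0, exact permutation p = 0.0476). It exceeded the highest TAC Veh value in 5 of the 6 TAC 29P libraries. The unadjusted limma p was 0.0530 with TMM factors and 0.0870 without the atrial libraries, which removes the highest value, 485 CPM in S18. With the run of label numbers as a covariate 0 TCA genes were counted as higher, so Idh3a was lost, and 1 BCAA gene was counted (0.795% of all genes higher). The count of members higher was 5 without TAC Veh library S12 (1.78% of all genes higher), 3 without TAC 29P library S3 (1.25% of all genes higher), and 0 without any of TAC Veh S2 and S16 and TAC 29P S1, S8 and S18 (0.450 to 1.17% of all genes higher). For Ppm1k the difference was 0.34 (95% interval −0.04 to 0.71, TMM 0.36), and for Bcat1 −0.65 (−1.70 to 0.39, TMM −0.63).

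In Sham mice the unadjusted limma p counted 3 members as higher with 29P and 0 as lower, against 1.6% and 5.89% of all genes. No member passed adjustment, and of all genes 0.0% did as higher and 0.00617% as lower. All 3 are BCAA genes. The log2 difference of 29P from Veh was 0.64 for Ppm1k (limma p = 0.00267, adjusted p = 0.651, exact permutation p = 0.0179), 0.27 for Acadsb (limma p = 0.0194, adjusted p = 0.651, exact permutation p = 0.0536) and 0.33 for Aldh6a1 (limma p = 0.0413, adjusted p = 0.656, exact permutation p = 0.0357). With TMM factors the log2 fold changes were 0.70, 0.33 and 0.39. The 3 Sham 29P libraries of Ppm1k lay above all 5 of Sham Veh, a separation seen for 0.629% of all genes. Without library S14 the log2 fold changes were 0.44 for Ppm1k, 0.15 for Acadsb and 0.18 for Aldh6a1, and of the 3 Ppm1k alone stayed at an unadjusted limma p of 0.05 or less. The Sham 29P libraries are also the Sham side of the surgery comparison in 29P mice, so both hold the same values.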

How the data were processed

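The 17 apex RNA libraries were grouped by their sample titles. Per the labels, the authors used STAR 2.3.7 and Partek with the mm10 build. Each CPM value was deposited with a constant of 0.0001 on top. The counting tool and the strand setting are not given in the sources used here. Read counts were not recovered: 80.4 to 83.4% of values under 10 reads lay within 0.02 reads of a whole number, at an estimated 14.2 to 23.8 M reads per library. Shallower libraries measure low genes less precisely. The planned count test was therefore replaced by limma 3.58.1 (R 4.3.3, trended variance) on log2 of the deposited value, fitted to 16218 genes with a CPM of at least 0.5 in at least 3 libraries and 1 mean per group.

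The members and lists were chosen with earlier results of these data known. All members could be named. Full values were given for up to 4 members of each group with the smallest adjusted p in Veh surgery mice and the 1 with the highest fold change there, for Bcat1, Bcat2, Bckdk, Ppm1k, Pcx, Bdh1, Oxct1 and Acat1, and for members with an unadjusted p of 0.05 or less in a 29P comparison. Of each of the 4 other lists, up to 2 genes with the smallest p in Veh mice were named, and 1 such gene is not reported here. Values of Dbt beyond this rule were chosen after they were seen. Ratios of members were compared by two-sided exact permutation, whose smallest p was 0.0179 (56 splits), 0.0119 (84 splits) or 4.11e-05 (24310 splits). The alternatives tried were TMM factors (30% trimmed by log ratio and 5% by mean level), median-of-ratios factors, totals without the 16 mitochondrially encoded genes, no filter or a stricter filter, added constants of 0.1 or 1, the runs of label numbers as a covariate, the compared groups alone, other thresholds and each library left out. Leaving out the atrial libraries was added after seeing the data. The model was tested on simulated data. Positions and exon lengths are those of GENCODE vM21, an annotation of the same build. Permutations ran in Python 3.11.15 (scipy 1.17.1, numpy 2.4.6, pandas 2.3.3), and matplotlib 3.10.9 drew the figures. Libraries the study removed and its other assays were not analysed here.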

Additional observations from a re-analysis of the deposited data

Results flagged for a closer look

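Among the 72 sets of member values in groups large enough for an outlier test, 1 library stood apart: Auh, the leucine-branch hydratase, was at 39.1 CPM (log2 5.29) in Sham Veh library S19, against 50.9 to 56.3 CPM in the other Sham Veh libraries. Its gap took 0.722 of the group's range, above Dixon's critical value of 0.71, and chance flags about 1 in 20 groups. S19 is also a library with atrial transcripts, and their part in the value was not tested. The effect of surgery differed between 29P and Veh mice by the unadjusted limma interaction for Mcee (log2 0.42, adjusted p = 0.998), which is not a member and did not pass adjustment.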

How the results depend on the processing

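The direction of the Bdh1 call held in every surgery comparison under each alternative run, while the number of members that fell depended on scaling, covariates and single libraries. In Veh mice the 10 that fell became 26 with TMM or median-of-ratios factors and 18 with totals without mitochondrially encoded genes. The count was 5 with only the groups compared, 6 with the run as a covariate and 17 at the unadjusted threshold. It was 5 without the atrial libraries and 23 without them and with TMM factors. In Veh mice the share of all genes called lower moved too, from 1.91% to 5.51% (TMM) and 5.30% (median-of-ratios). That share was 3.11% with totals without mitochondrially encoded genes, 1.202% with only the groups compared and 1.28% with the run as a covariate. At the unadjusted threshold it was 3.48%. Without the atrial libraries it was 0.937%, and 3.40% without them and with TMM factors. In 29P mice the 10 became 25 with either factor, 18 with totals without mitochondrially encoded genes, 1 with the run as a covariate and 22 without the atrial libraries and with TMM factors. There the share of all genes called lower went from 1.12% to 5.23% (TMM), 4.98% (median-of-ratios), 2.22%, 0.166% and 6.02% in the same order. Over both treatments the 16 became 31 with TMM factors, with median-of-ratios factors, and without the atrial libraries with TMM factors, and the 1 that rose became 2 with the run as a covariate. Of all genes, the 3.08% called lower became 13.5%, 13.2% and 12.3% in the same order. The 49.4% called higher became 48.9% with the run as a covariate. For 29P within TAC the 1 higher member became 0 with TMM factors, median-of-ratios factors, no filter, the adjusted threshold, and without the atrial libraries under either scaling, and 2 with totals without mitochondrially encoded genes. Of all genes 1.05% were higher there, and 0.0% at the adjusted threshold. In the other settings that gave 0 the share was 1.23 to 1.91%, and with totals without mitochondrially encoded genes 1.45%. The 0 lower became 1 with only the groups compared, where the share of all genes lower went from 0.931% to 2.46%. With the run as a covariate the 1 higher member within TAC was a BCAA gene in place of Idh3a (0.795% of all genes higher). For 29P in Sham mice the 3 higher became 1 without the atrial libraries with TMM factors and 0 at the adjusted threshold. The share of all genes higher went from 1.6% to 1.96% and 0.0%.

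Leaving out 1 library at a time gave 1 higher and 0 to 15 lower in Veh mice, 1 to 2 higher and 2 to 10 lower in 29P mice, and 1 to 2 higher and 14 to 20 lower over both. For 29P it gave 0 to 5 higher and 0 to 1 lower within TAC, 1 to 4 higher and 0 to 1 lower in Sham, and for the interaction 0 to 1 higher and 0 lower. In Sham mice the 3 higher members with 29P became 1 without library S14. With TMM or with median-of-ratios factors, 3 members went from a positive to a negative fold change in Veh mice (Ogdh, Pcx and Bckdk), 8 in 29P mice (Idh2, Ogdh, Dlst, Mdh2, Bckdk, Auh, Acad8 and Hibch) and 4 over both treatments (Ogdh, Pcx, Bckdk and Acad8). Those that also passed the threshold after the turn were Dlst in 29P mice (−0.35 with TMM and −0.35 with median-of-ratios factors), Auh in 29P mice (−0.35 with both) and Acad8 over both treatments (−0.33 with TMM, −0.33 with median-of-ratios factors and −0.35 without the atrial libraries with TMM factors). The causes of these changes were not tested. No paired analysis was possible because the groups share no replicate numbers. The comparison of count models was not run, since the file holds no counts. Depth is estimated, and Bcat1, at 0.423 to 3.04 CPM, is the member it limits most.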
